A study of Mus musculus with 7 samples.

Results

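Regulatory T cells (Tregs) were chosen by measured transcripts in single-cell RNA libraries of the inflamed mouse central nervous system: by those of Ikzf2, which encodes the transcription factor Helios, together with at least 1 of 5 partner genes: Foxp3, Il2ra, Ctla4, Izumo1r and Tnfrsf4. A barcode had to hold at least 200 genes, at most 10% mitochondrial UMIs (unique molecular identifiers, each standing for 1 captured transcript), at least 2 UMIs of the Cd3 genes, at most 120 UMIs of Lyz2, C1qb and Cd74 per 10000, and neither Cd8a nor Cd163l1. The Ikzf2 and partner rule then took 1513 barcodes as Tregs, and the other 4463 barcodes that passed the same filters are called other Cd3 cells. Together they are 5976 of 13922 barcodes in all.

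The series compared mice lacking LAG3, an inhibitory receptor of T cells whose ligands include MHC class II, with wild-type mice in experimental autoimmune encephalomyelitis, a model of multiple sclerosis induced by immunization with a peptide of myelin oligodendrocyte glycoprotein (residues 35 to 55). The groups were Lag3KO_CD4 (n = 2 libraries), WT_CD4 (n = 2), Lag3KO_CD45 (n = 1) and WT_CD45 (n = 2), named for the genotype and for the surface protein, CD4 or CD45, by which magnetic beads enriched the cells. All mice had the B6 background, the same immunization, and cells taken from the central nervous system at peak disease with matched clinical scores. The labels call the mutant allele floxed as well as knockout, give neither a Cre line nor the deleted exons, and give 5 mice per group without saying which mice are in which library.

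Tregs are CD4 T cells that restrain other T cells; their lineage factor is FOXP3, and Helios is found in many Tregs of thymic origin and in some activated T cells. They take up IL-2 through the receptor chain CD25 (Il2ra), carry the inhibitory receptor CTLA-4 and the TNF receptor family members OX40 (Tnfrsf4) and GITR (Tnfrsf18), and present latent TGF-beta on GARP (Lrrc32). In inflamed tissue, effector Tregs are known for receptors such as ST2 (Il1rl1) and KLRG1 and for products such as amphiregulin (Areg) and granzyme B (Gzmb).

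The libraries held 1428 to 2517 barcodes. Lag3 tags contradicted 1 label: the library labelled WT_CD45 2 held 4 Lag3 UMIs in all and 0 in its Tregs. The counts of genotype calls and the share of Tregs are therefore also given without it. Calls within the CD45 libraries are not, since 1 library of each genotype would remain. Sort, sex and batch cannot be told apart, since Xist, made in females, was present in the CD4 libraries and Y-linked genes were read in the CD45 libraries. No 2 libraries shared a Treg barcode, and at most 12 barcodes of any kind were shared by a pair of libraries. Tregs were deeper than other Cd3 cells in every library. Median UMIs per Treg were 3764 and 2852.5 in Lag3KO_CD4, 2842 and 3276 in WT_CD4, 5255 in Lag3KO_CD45 and 5473 and 3916 in WT_CD45, against 1971 to 3772.5 in other Cd3 cells.

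The genes that chose the Tregs were first read as a description, with no test. Levels are UMIs per 1e6 UMIs of the class (CPM). Ikzf2 stood at 492 and 681 CPM in Tregs of Lag3KO_CD4, 720 and 788 in WT_CD4, 479 in Lag3KO_CD45 and 565 and 843 in WT_CD45, and at 2.11 to 17.6 CPM in other Cd3 cells. Tnfrsf4 was the most abundant partner at 857 to 1305 CPM in Tregs, against 139 to 507 CPM in other Cd3 cells. Izumo1r, a folate receptor family member on Tregs, had 346 to 572 CPM in Tregs and 25.7 to 190 CPM in other Cd3 cells. Ctla4 had 276 to 530 CPM in Tregs and 55.7 to 145 CPM in other Cd3 cells, and Il2ra 142 to 222 CPM in Tregs and 29.1 to 72.9 CPM in other Cd3 cells. The ranges of each of these genes in the 2 classes did not overlap, which the rule itself favours.

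Foxp3 was detected in few Tregs of most libraries, for a reason that was not tested, and its level set 2 libraries apart. Tregs of Lag3KO_CD4 held 9.08 and 10.7 CPM of Foxp3 and those of WT_CD4 8.47 and 9.37 CPM. Tregs of Lag3KO_CD45 held 3.93 CPM and those of WT_CD45 60.1 and 180 CPM. In barcodes, Foxp3 UMIs were present in 2 of 76 Tregs of Lag3KO_CD45, against 14 of 63 and 48 of 87 Tregs of WT_CD45, and in 9 of 222 and 12 of 296 Tregs of Lag3KO_CD4, against 13 of 449 and 12 of 320 of WT_CD4. Other Cd3 cells held 0 to 8 Foxp3 UMIs per library. The label therefore rests in most libraries on Ikzf2 with Tnfrsf4, Izumo1r, Ctla4 and Il2ra, while Foxp3, the defining gene, was detected in few barcodes outside WT_CD45.

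**Figure D1:**
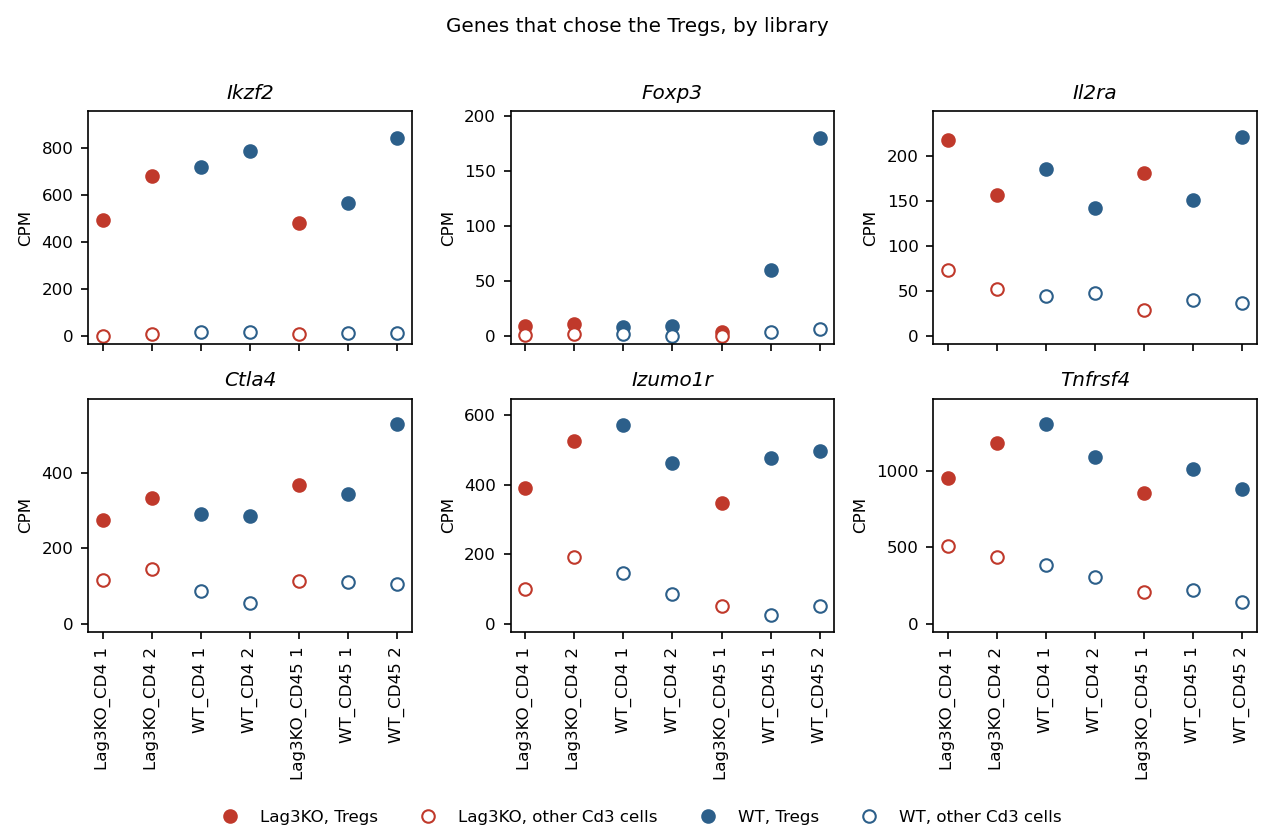
Levels of the 6 genes that chose the Tregs, in CPM on the y axis and by library on the x axis; filled points are Tregs and open points other Cd3 cells, red for Lag3KO and blue for WT. Ikzf2 lies at 479 to 843 in Tregs and at most 17.6 in other Cd3 cells, whereas Foxp3 exceeds 10.7 only in Tregs of the 2 WT_CD45 libraries.

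Among the Tregs, 490 held 1 Ikzf2 UMI (32.4%), 353 held 2 and 258 held 5 or more. A single partner was present in 265 Tregs, 2 partners in 443, 3 in 480, 4 in 279 and all 5 in 46. The combination of Ctla4, Izumo1r and Tnfrsf4 was the most frequent (282 Tregs), followed by the same genes with Il2ra (245). Tnfrsf4 alone stood beside Ikzf2 in 149 Tregs.

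Values of genes that the rule did not use are given for barcodes just inside and just outside it, with no test. Lrrc32, the GARP gene, stood at 43.2 CPM in the 490 Tregs with 1 Ikzf2 UMI and at 7.90 CPM in the 2462 other Cd3 cells with a partner and no Ikzf2. It stood at 31.3 CPM in the 265 Tregs with 1 partner and at 3.14 CPM in the 111 barcodes with Ikzf2 and no partner. Tnfrsf18, the GITR gene, had 883 CPM against 476 CPM at the Ikzf2 edge, and 681 CPM against 286 CPM at the partner edge. These values pool both sorts. In the CD45 libraries Lrrc32 had 0 UMIs on both sides of the partner edge (25 Tregs and 23 barcodes). Tnfrsf18 had 270 CPM against 145 CPM there. Over both sorts Gzmb went the other way at the partner edge, with 129 CPM in Tregs against 430 CPM. The myeloid ceiling kept 84 barcodes between 60 and 120 UMIs of Lyz2, C1qb and Cd74 per 10000 and left out 214 between 120 and 240, in which Lrrc32 had 28.8 CPM and 15.4 CPM. At the Cd3 edge the order was the opposite: Lrrc32 had 57.6 CPM in the 60 Tregs with 2 Cd3 UMIs and 90.5 CPM in the 45 barcodes with 1 that met the other conditions.

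Within the Tregs, several genes outside the rule were higher where more partners were seen. Itgae, which encodes the CD103 integrin chain, had 8.75, 21.0, 29.6 and 44.2 CPM in Tregs with 1, 2, 3 and 4 or 5 partners, and Gzmb had 129, 301, 487 and 672 CPM. Ikzf4, which encodes Eos, a partner of FOXP3, had 45.0, 40.7, 58.8 and 55.2 CPM. Median depth moved with the partner number in the same barcodes, at 2330, 2651, 3626 and 5545 UMIs, and its part in these gradients was not tested. In barcodes without Ikzf2 the same genes were also higher with more partners: Lrrc32 had 1.52 CPM with no partner and 28.6 CPM in the 60 barcodes with 4 or 5, and Tnfrsf18 254 and 881 CPM. Some other Cd3 cells thus carried Treg genes without an Ikzf2 UMI.

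**Figure D2:**
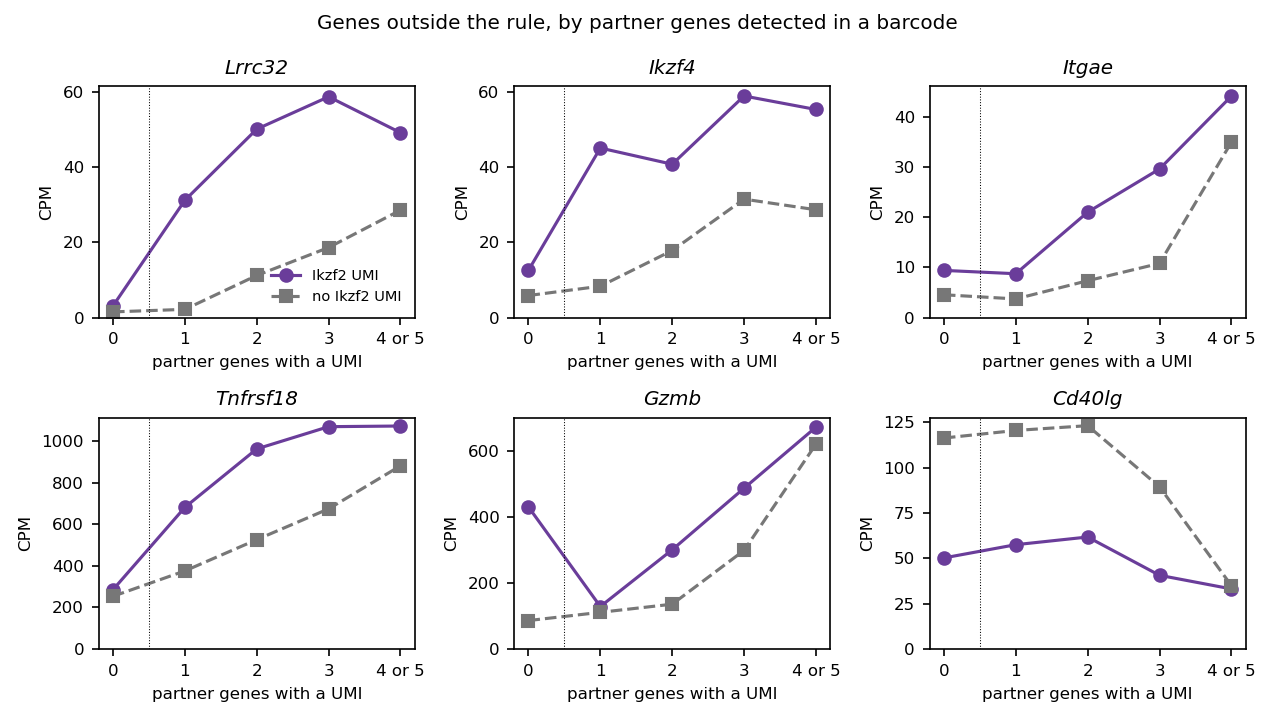
Levels of 6 genes outside the rule, in CPM over the barcodes of all libraries, by the number of partner genes with a UMI in the barcode; solid lines are barcodes with Ikzf2 and dashed lines those without, and the dotted line separates barcodes with no partner. Lrrc32 reaches 58.8 in Tregs with 3 partners, and Cd40lg stands at 33.1 to 61.7 in Tregs, against 34.98 to 123 in barcodes without Ikzf2 that have a partner.

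To find what the Tregs shared beyond the rule, UMIs were summed per library and class, and Tregs were set against other Cd3 cells of the same library with edgeR's quasi-likelihood test (library as a block, Benjamini-Hochberg adjustment over 7494 genes, the 14 genes of the rule left out). In these cells, 486 genes were higher in Tregs (6.49% of those tested) and 471 lower (6.29%) at an adjusted p under 0.05. Of these, 325 and 297 had the same sign in all 7 libraries, and for 57 and 25 the values of the classes did not overlap over libraries. The same counts were not made over all 7494 genes tested, so they describe the calls and do not add to them. The cells were gated on genes that vary together with many others, so these differences describe the gate and are not independent evidence that it holds Tregs. Between barcodes of 1500 to 4000 UMIs in both classes, where median depths are closer, 808 genes were called.

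Genes of Treg identity led the higher group. Lrrc32 had 36.3 and 68.0 CPM in Tregs of Lag3KO_CD4, 62.3 and 67.2 in WT_CD4, 21.6 in Lag3KO_CD45 and 12.01 and 17.4 in WT_CD45, against 0 to 10.3 CPM in other Cd3 cells (log2 difference 3.09 ± 0.21 SE, edgeR adjusted p = 5.49e-08). Every Treg value lay above every value of other Cd3 cells. Ikzf4 had 43.8 to 58.6 CPM in Tregs and 5.66 to 15.4 CPM in other Cd3 cells (2.11 ± 0.17, adjusted p = 4.97e-07). Itgae had 21.2 to 60.9 CPM in Tregs and 3.66 to 11.4 CPM in other Cd3 cells (2.29 ± 0.17, adjusted p = 1.66e-07). Tnfrsf18 had 682 to 1253 CPM in Tregs and 180 to 546 CPM in other Cd3 cells (1.40 ± 0.10). Of 10 tested Treg identity genes outside the rule, 8 were higher and 0 lower, with a median log2 difference of 1.13, against 0.00 over all genes tested. Smaller differences among these were in Nrp1 (0.40 ± 0.11), a surface protein of thymic Tregs, and Capg (0.34 ± 0.07), an actin capping protein, each higher in 6 of 7 libraries.

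Effector and tissue Treg genes were also higher. Of 20 tested members, 14 were higher and 3 lower (median log2 difference 0.54). Klrg1 had 36.3 and 43.0 CPM in Tregs of Lag3KO_CD4, 59.9 and 80.5 in WT_CD4, 98.2 in Lag3KO_CD45 and 72.1 and 256 in WT_CD45, against 12.2 to 28.1 CPM in other Cd3 cells (2.05 ± 0.24, adjusted p = 1.9e-05). Its highest value was in the library labelled WT_CD45 2. Il1rl1, the ST2 gene, had 34.8 to 55.0 CPM in Tregs and 1.90 to 21.6 CPM in other Cd3 cells (1.74 ± 0.20). Tnfrsf9, which encodes 4-1BB, had 354 to 602 CPM in Tregs and 91.3 to 196 CPM in other Cd3 cells (1.85 ± 0.12, adjusted p = 4.08e-08). The transcription factor genes Gata3 (0.69 ± 0.08), Maf (0.67 ± 0.12), Prdm1 (0.49 ± 0.15) and Batf (0.31 ± 0.09) were higher by smaller amounts. The 3 lower members were Id2 (-0.85 ± 0.07), Bhlhe40 (-0.59 ± 0.08) and Rora (-0.33 ± 0.08), all transcription regulators that other effector T cells also use.

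Of 9 tested suppressive mediators, 5 were higher and 0 lower (median 0.61). Gzmb had 494 and 494 CPM in Tregs of Lag3KO_CD4, 434 and 385 in WT_CD4, 633 in Lag3KO_CD45 and 406 and 491 in WT_CD45, against 95.1 to 183 CPM in other Cd3 cells (1.75 ± 0.08, adjusted p = 3.65e-10). Its Treg values lay above those of other Cd3 cells in every library, without overlap. Ebi3, the beta chain of IL-35 and IL-27, had 19.7 to 55.0 CPM in Tregs and 2.67 to 21.6 CPM in other Cd3 cells (1.89 ± 0.23), and Areg up to 69.5 CPM in Tregs and up to 19.7 CPM in other Cd3 cells (1.67 ± 0.24). Nt5e, the CD73 ectoenzyme, was higher by 0.57 ± 0.11, and Penk, the proenkephalin gene, by 1.52 ± 0.37 with Tregs above other Cd3 cells in 5 of 7 libraries. Tgfb1 did not pass (0.00 ± 0.09, adjusted p = 0.987). Il10 was too low to test over all sums and depended on the sort: Tregs held 4.54 and 7.16 CPM in Lag3KO_CD4, 5.44 and 0.781 in WT_CD4, 49.1 in Lag3KO_CD45 and 31.2 and 122 in WT_CD45, against 0.89 to 4.79 CPM in other Cd3 cells of the 7 libraries.

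**Figure D3:**
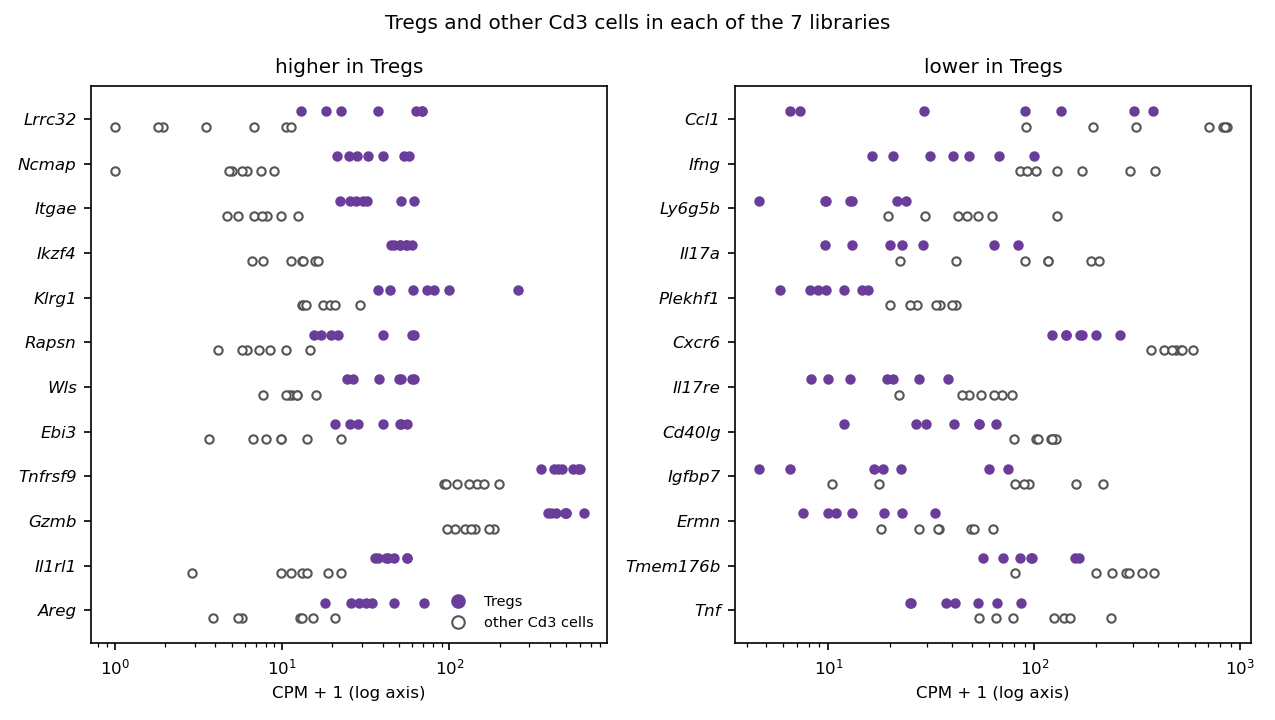
Levels in each of the 7 libraries of the 12 genes with the largest positive and the 12 with the largest negative differences, in CPM plus 1 on a log axis; filled points are Tregs and open points other Cd3 cells. Every filled point of Tnfrsf9 (354 to 602) and Gzmb (385 to 633) lies right of the open points (at most 196), and every filled point of Cxcr6 (121 to 261) lies left of them (at least 366).

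The remaining largest positive differences were in genes with no fixed role in the lists. Ncmap, a gene known from myelinating glia, had 20.3 to 56.5 CPM in Tregs and 0 to 8.01 CPM in other Cd3 cells (2.63 ± 0.26). Rapsn, known from the neuromuscular junction, differed by 2.01 ± 0.21, and Wls, which carries Wnt proteins to the cell surface, by 1.99 ± 0.21. Each was higher in all 7 libraries.

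Genes of inflammatory helper cells were among the lower group. Cxcr6, a chemokine receptor of tissue effector T cells, had 261 and 121 CPM in Tregs of Lag3KO_CD4, 170 and 166 in WT_CD4, 141 in Lag3KO_CD45 and 142 and 198 in WT_CD45, against 366 to 591 CPM in other Cd3 cells (-1.55 ± 0.07, adjusted p = 3.37e-10). Ifng had 15.2 to 98.5 CPM in Tregs and 84.6 to 383 CPM in other Cd3 cells (-2.09 ± 0.30, adjusted p = 0.000154). Of 14 tested Th1 genes 9 were lower and 0 higher (median -0.78), among them Tbx21, the T-bet gene (-0.95 ± 0.17). Of 10 tested Th17 genes 6 were lower and 1 higher (median -1.23). Il17a had 8.59 to 82.5 CPM in Tregs and 21.4 to 205 CPM in other Cd3 cells (-1.76 ± 0.21). The higher Th17 list member was Ahr (0.54 ± 0.13), a ligand-activated transcription factor that Tregs also use. Of 8 tested effector cytokine genes 6 were lower and 0 higher (median -1.13). They included Ccl1 (-2.38 ± 0.31), Csf2, the GM-CSF gene (-1.68 ± 0.32), and Tnf (-1.26 ± 0.22). Il2, of which Tregs are known to make little, did not pass (-1.60 ± 0.60, adjusted p = 0.0942), with Tregs below other Cd3 cells in 4 of 7 libraries.

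The other large negative differences were in Ly6g5b (-1.78 ± 0.23), Plekhf1 (-1.55 ± 0.18), the IL-17 receptor subunit gene Il17re (-1.45 ± 0.15), Igfbp7 (-1.35 ± 0.29), Ermn (-1.33 ± 0.14) and Tmem176b (-1.28 ± 0.14), an ion channel gene of Th17 and dendritic cells. Each was lower in Tregs in 7 of 7 libraries.

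Of 10 tested receptors for costimulation, 5 were higher and 3 lower (median 0.20). Icos (0.58 ± 0.11) and Cd27 (1.31 ± 0.13) were higher beside Tnfrsf18, Tnfrsf9 and Cd2. Cd40lg, by which helper T cells activate antigen-presenting cells, had 10.9 to 64.4 CPM in Tregs and 78.9 to 127 CPM in other Cd3 cells (-1.42 ± 0.14, adjusted p = 4.1e-06), and Cd28 and Cd226 were also lower. Of 10 tested co-inhibitory genes, Cd200r1 and Pglyrp1 were higher and Cd96 and Cd160 lower (median 0.02). Pdcd1, the PD-1 gene, did not pass (0.13 ± 0.14, adjusted p = 0.614). Cd4 itself was lower in Tregs in all 7 libraries (-0.51 ± 0.11, adjusted p = 0.00475).

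Among signalling lists, the NF-kB list had 4 of 12 tested members higher and 0 lower (median 0.17), namely Nfkbia, Nfkbiz, Tnfaip3 and Birc3, all targets and regulators of that pathway. Of the IL-2 and STAT5 list, Cish, Socs1 and Pim1 were higher and Pim2 lower of 14 (median 0.17). Of 17 tested genes of the T cell receptor and immediate early response, 2 were higher (Dusp1, Zfp36) and 5 lower (Egr2, Jun, Dusp2, Ier2, Nfatc1), with a median of -0.19. In the type I interferon list 8 of 28 were higher and 1 lower (median 0.19). Ifi27l2a, an interferon-induced gene, had 2760 and 6105 CPM in Tregs of Lag3KO_CD4, 2822 and 4642 in WT_CD4, 2967 in Lag3KO_CD45 and 3929 and 3651 in WT_CD45, against 1574 to 4032 CPM in other Cd3 cells (0.85 ± 0.05, adjusted p = 7.45e-09). Ranges overlapped over libraries, yet Tregs were higher within each of the 7.

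Of 12 tested resting T cell genes, 5 were lower (median -0.21). Tcf7 (-0.60 ± 0.10), Bcl2 (-0.43 ± 0.10) and Klf2 (-0.21 ± 0.06) were lower in all 7 libraries, and Satb1 and Igfbp4 were lower too. Klf2 also set the sorts apart: it had 505 to 1145 CPM in Tregs of the CD4 libraries and 45.6 to 92.3 CPM in those of the CD45 libraries, and 559 to 1235 and 49.3 to 110 CPM in other Cd3 cells of these sorts. The remaining lists had 2 higher and 0 lower of 16 MHC class I genes, 2 and 4 of 14 homing receptors, 1 and 0 of 26 cell cycle genes, 0 and 1 of 16 glycolysis genes, 0 and 3 of 11 heat shock genes, and 2 and 3 of 9 cytotoxic granule genes.

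To set the classes side by side at equal depth, barcodes with at least 1000 UMIs were thinned to that number and shallower ones left out. Classes were those chosen at full depth. In WT_CD4 1, where most were lost, 427 of 449 Tregs and 1029 of 1072 other Cd3 cells remained, and no barcode of either class was lost from the CD45 libraries. At that depth, 5 or more UMIs of the effector and tissue Treg genes were present in 13.1% and 7.96% of Tregs of Lag3KO_CD4, 9.13% and 12.5% of WT_CD4, 9.21% of Lag3KO_CD45 and 14.3% and 19.5% of WT_CD45. In other Cd3 cells the share was 0.334% to 2.22%. The share of Tregs was thus above that of other Cd3 cells in each library, and most Tregs lay below 5 UMIs in every library.

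The proximal promoters of the higher genes were read from RefSeq (GRCm38.p6, the build of the files) to show the sequence at genes that moved together. Of the 12 genes with the largest positive differences 7 had an entry, and the 250 bases before the start were searched on both strands for STAT (TTCNNNGAA), forkhead (TGTTTAC), AP-1 (TGANTCA) and NF-kB (GGGNN followed at once by TTNCC) letters. The 4 shown were chosen after the search because they hold matches, which stand in capitals and can overlap one another. Tnfrsf9 and Il1rl1 have 2 annotated starts each, and the promoter of the start that held matches is printed.
Ebi3, chr17:55952373-55952622, plus strand, NF-kB letters: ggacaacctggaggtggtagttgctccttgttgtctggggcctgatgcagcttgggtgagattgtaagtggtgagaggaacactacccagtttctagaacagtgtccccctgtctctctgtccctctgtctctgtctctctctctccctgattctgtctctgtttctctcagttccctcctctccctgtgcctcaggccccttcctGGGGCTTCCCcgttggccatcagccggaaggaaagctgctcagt
Tnfrsf9, chr4:150927749-150927998, plus strand, STAT, NF-kB and AP-1 letters: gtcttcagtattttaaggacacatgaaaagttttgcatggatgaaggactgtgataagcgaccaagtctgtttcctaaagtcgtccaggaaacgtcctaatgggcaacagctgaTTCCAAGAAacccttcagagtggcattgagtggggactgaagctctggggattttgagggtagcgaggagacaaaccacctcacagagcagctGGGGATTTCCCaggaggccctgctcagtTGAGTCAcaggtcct
Gzmb, chr14:56262335-56262584, minus strand, AP-1 letters: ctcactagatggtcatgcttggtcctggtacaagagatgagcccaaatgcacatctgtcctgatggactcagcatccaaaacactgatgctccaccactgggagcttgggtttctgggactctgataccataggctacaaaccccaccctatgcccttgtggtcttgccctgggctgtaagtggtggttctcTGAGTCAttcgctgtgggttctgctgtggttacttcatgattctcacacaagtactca
Il1rl1, chr1:40439379-40439628, plus strand, forkhead letters on the other strand: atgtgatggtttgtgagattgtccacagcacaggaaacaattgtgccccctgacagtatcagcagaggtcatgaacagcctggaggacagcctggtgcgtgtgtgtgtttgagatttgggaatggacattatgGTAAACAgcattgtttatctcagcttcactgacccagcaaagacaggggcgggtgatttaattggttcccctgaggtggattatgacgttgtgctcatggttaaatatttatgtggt

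Over the genes that moved, NF-kB letters stood in 7.86% of the 369 higher genes with an entry, 3.92% of the 357 lower genes, 4.89% of the 5813 genes tested with an entry and 4.11% of all 32851 promoters. STAT letters stood in 8.40% of higher, 5.32% of lower and 5.88% of tested genes and in 7.02% of all promoters. AP-1 letters stood in 6.78%, 5.88%, 4.04% and 6.75%, and forkhead letters in 2.98%, 3.08%, 2.12% and 3.17%, in the same order. Each gene was counted by its first listed start, whereas the share of all promoters counted every start. The printed promoters of Tnfrsf9 and Il1rl1 belong to later starts and do not enter the shares of genes. These shares describe letters in a window and were not tested.

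The question of the series is how Tregs without LAG3 differ from those with it. Lag3 itself was at 0 UMIs in Tregs of all 3 Lag3KO libraries, against 46 and 20 UMIs (27.8 and 15.6 CPM) in WT_CD4, 17 UMIs (40.9 CPM) in WT_CD45 1. Tregs of the library labelled WT_CD45 2 held 0. With a floor of 3 UMIs over the Lag3KO_CD4 group, Lag3 in its Tregs was at least 20.6-fold lower than in WT_CD4 1 and at least 11.6-fold lower than in WT_CD4 2. Over both sorts with sort as a term, edgeR gave Lag3 an adjusted p of 0.294, and 0.0093 without the library labelled WT_CD45 2. Tags outside the deleted part would not check the deletion, and the labels do not say where it lies.

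Tregs as a share of filtered Cd3 cells differed between genotypes in the CD4 libraries by more than the spread between libraries. Tregs made up 22.7% (95% exact binomial interval 20.1 to 25.4) and 21.1% (19.0 to 23.3) in Lag3KO_CD4, against 29.5% (27.2 to 31.9) and 28.9% (26.2 to 31.6) in WT_CD4. They made up 25.5% (20.7 to 30.8) in Lag3KO_CD45, against 22.7% (17.9 to 28.1) and 22.5% (18.5 to 27.0) in WT_CD45. The Lag3KO shares lay below the WT shares in the CD4 libraries and above them in the CD45 libraries, where all 3 intervals overlap. The difference of -7.33 points in the CD4 libraries gave a two-sided exact permutation p of 0.333, the smallest that 6 arrangements of 2 against 2 libraries allow. Over both sorts it was -3.25 points (exact permutation p = 0.333 over 18 arrangements), and -3.96 points without the library labelled WT_CD45 2. With a Foxp3 UMI in place of the whole rule the shares were 1.12% and 1.21% in Lag3KO_CD4, against 1.18% and 1.17% in WT_CD4, so they overlapped there. In the CD45 libraries they were 0.671% in Lag3KO_CD45, against 6.50% and 14.2% in WT_CD45, and the difference over both sorts was -3.89 points (exact permutation p = 0.5). A share within a bead-enriched sample does not count cells in the tissue, and intervals cover counting error only.

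With barcodes thinned to 1000 UMIs and the Cd3, Ikzf2, partner and exclusion genes read again at that depth, the shares were 9.80% and 10.7% in Lag3KO_CD4, against 14.9% and 14.5% in WT_CD4. In the CD45 libraries they were 9.36% in Lag3KO_CD45, against 8.33% and 10.7% in WT_CD45, a difference of -0.151 points where the unthinned value was 2.86 points. At 2000 UMIs the difference was -6.75 points in the CD4 libraries and 2.49 points in the CD45 libraries, so the CD4 difference was negative at both depths and the CD45 difference had another sign at 1000 UMIs than at 2000 UMIs and unthinned.

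**Figure D4:**
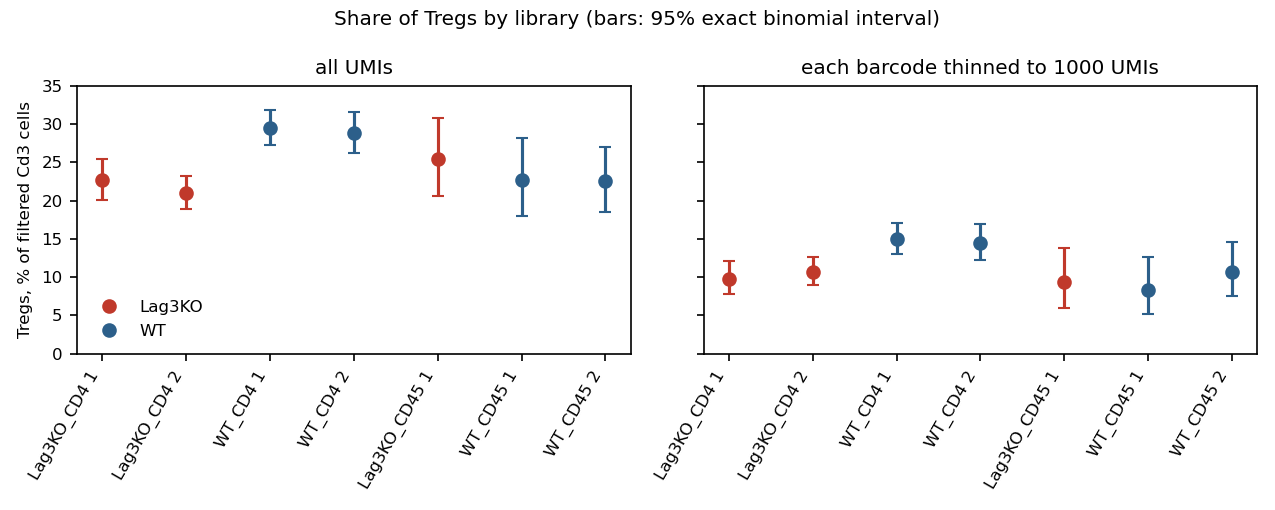
Tregs as a percentage of filtered Cd3 cells by library, with all UMIs (left) and with barcodes of at least 1000 UMIs thinned to 1000 (right); points are libraries, red for Lag3KO and blue for WT, and bars are 95% exact binomial intervals. With all UMIs the Lag3KO_CD4 libraries lie at 22.7% and 21.1% and the WT_CD4 libraries at 29.5% and 28.9%.

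Few genes were called between Lag3KO and WT Tregs, and so few libraries cannot show that the other genes do not differ. Over both sorts 3 of 8962 genes were called (0.0335%), all lower in Lag3KO: Camp, Ngp and Wfdc21, which encode proteins that neutrophils make. Camp had 0 and 0.895 CPM in Tregs of Lag3KO_CD4, against 223 and 216 CPM in WT_CD4, and 5.89 CPM in Lag3KO_CD45, against 24.0 and 6.52 CPM in WT_CD45 (adjusted p = 0.000559). In WT_CD4, 366 of 369 and 274 of 277 Camp UMIs came from a single barcode each. These barcodes were among 5 of 1513 Tregs with 10 or more UMIs of the 4 neutrophil markers S100a8, S100a9, Retnlg and Csf3r, namely 3 in WT_CD4 1, 1 in WT_CD4 2 and 1 in Lag3KO_CD45 1. They held 3010 of 3073 marker UMIs in Tregs of WT_CD4 1 and 1591 of 1648 in those of WT_CD4 2, against totals of 28 and 24 in Lag3KO_CD4. Without such barcodes edgeR called 0 genes over both sorts, with 368 at an unadjusted p under 0.05. DESeq2 on all barcodes called 6: Cst3, Ctsh and Cd63, protease pathway and lysosomal genes that are abundant in myeloid cells, and Gm15987 higher, and Tpm3 and Wfdc21 lower. Without the library labelled WT_CD45 2 edgeR called 8: Lag3, Camp, Ngp, Wfdc21, Lcn2, Ltf and S100a9 lower and Gzma, a granzyme gene, higher (2.61 ± 0.41, adjusted p = 0.0345). Leaving out another library in turn gave 22 calls without WT_CD45 1, 11 without Lag3KO_CD45 1, 5 without WT_CD4 2 and 1 without Lag3KO_CD4 2.

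The contrast of the CD4 libraries within the model of all 7 libraries gave 11 calls of 8962 (0.123%), 3 higher and 8 lower in Lag3KO. A model of the 4 CD4 libraries by themselves called 15 of 7779, 5 higher and 10 lower, which added Lag3 (adjusted p = 0.0166) and Penk as lower and the chemokine genes Ccl2 and Cxcl3 as higher. Of the lower, 7 were the neutrophil genes Camp, Ngp, S100a8, S100a9, Lcn2, Ltf and Wfdc21. S100a8 had 14.5 and 9.84 CPM in Tregs of Lag3KO_CD4, against 1112 and 922 CPM in WT_CD4, and without the few barcodes the WT_CD4 values were 18.4 and 22.97 CPM. The other lower gene was Tpm3, a tropomyosin gene, with 66.3 and 70.7 CPM in Lag3KO_CD4, against 320 and 359 CPM in WT_CD4 (-2.29 ± 0.17, adjusted p = 4.75e-05). Its near copy Tpm3-rs7 was the largest higher call, at 284 and 286 CPM in Lag3KO_CD4, against 6.65 and 8.59 CPM in WT_CD4 (5.24 ± 0.58, adjusted p = 0.00152). Summed, the pair had 351 and 357 CPM in Lag3KO_CD4, against 327 and 367 CPM in WT_CD4, so the sums overlap and the split between the copies is uncertain. In other Cd3 cells Tpm3 had 62.8 and 73.8 CPM in Lag3KO_CD4, against 368 and 404 CPM in WT_CD4, and Tpm3-rs7 294 and 320 CPM in Lag3KO_CD4, against 4.76 and 6.68 CPM in WT_CD4. Gm15987 had 29.1 and 28.6 CPM in Lag3KO_CD4, against 1.21 and 1.56 CPM in WT_CD4 (4.29 ± 0.44), while the CD45 libraries held 31.4 CPM in Lag3KO_CD45, against 21.6 and 26.1 CPM in WT_CD45. Emp1, an epithelial membrane protein gene, had 106 and 84.1 CPM in Lag3KO_CD4, against 28.4 and 32.8 CPM in WT_CD4 (1.66 ± 0.26, edgeR adjusted p = 0.0329). In Tregs of Lag3KO_CD45 Emp1 had 47.2 CPM, against 76.9 and 41.3 CPM in WT_CD45. Tpm3-rs7 had 90.4 CPM there, against 161 and 21.7 CPM, so both genes lay between the WT_CD45 values. Tpm3 had 212 CPM in Lag3KO_CD45, against 250 and 267 CPM in WT_CD45. Other Cd3 cells had 20.2 and 28.4 CPM of Gm15987 in Lag3KO_CD4, against 5.13 and 4.45 CPM in WT_CD4, and 130 and 143 CPM of Emp1 in Lag3KO_CD4, against 42.9 and 72.1 CPM in WT_CD4. These 4 genes thus had values on the same side in both classes of the CD4 libraries, and no test of the CD4 libraries was run in other Cd3 cells. Without the neutrophil-marker barcodes 3 genes were called in the CD4 libraries: Tpm3, Tpm3-rs7 and Gm15987.

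In the CD45 libraries 0 of 8962 genes (0%) were called by edgeR and 0 by DESeq2, with 483 and 120 genes at an unadjusted p under 0.05. There the comparison rests on 1 Lag3KO library and on 2 WT libraries whose Lag3 levels differ. Without the library labelled WT_CD45 2 it would rest on 1 library against 1, so calls are not given for that fit. In other Cd3 cells over both sorts edgeR called 0 of 10219 genes (0%) and DESeq2 1, with 405 and 148 at an unadjusted p under 0.05. Without the library labelled WT_CD45 2 edgeR called 0 there, with 317 at an unadjusted p under 0.05.

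The genes that chose the Tregs are given between genotypes as a description, since a barcode had to hold them to be counted. Ikzf2 averaged 587 ± 133 CPM in Lag3KO_CD4 and 754 ± 48.1 CPM in WT_CD4 (SD, n = 2 each), and 479 CPM in Lag3KO_CD45 and 704 ± 197 CPM in WT_CD45 (SD, n = 2). Every Lag3KO library lay below every WT library of its sort, with WT_CD45 2 taken as labelled. How many of all genes separate in this way was not counted, so the order does not single out Ikzf2. Outside the rule, the lists had 0 members called by edgeR in either direction. The median log2 difference was -0.14 for 11 tested Treg identity genes, -0.22 for 12 suppressive mediators and -0.08 for 20 effector and tissue Treg genes, against 0.00 over all genes tested. The lists of other helper cells had positive medians, 0.89 for effector cytokines of conventional T cells (7 of 8 tested members positive), 0.43 for Th17 genes (7 of 10) and 0.17 for Th1 genes (12 of 14). Other lists had medians as far from 0 as those of the Treg lists. They were -0.19 for co-stimulatory receptors (1 of 10 positive), -0.19 for cell cycle genes (5 of 26) and -0.18 for resting T cell genes (3 of 12). Cytotoxic granule genes had 0.22 (8 of 10). No list was tested as a set, and these medians do not single out the Treg genes.

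The calls for 3 further genes depended on the barcodes used. Ccl5, a chemokine of activated T cells, averaged 2400 ± 975 CPM in Lag3KO_CD4 and 1308 ± 368 CPM in WT_CD4 (SD, n = 2 each), and 2501 CPM in Lag3KO_CD45, against 1586 and 1043 CPM in WT_CD45 (0.90 ± 0.20, edgeR adjusted p = 0.294). Each Lag3KO library lay above each WT library of its sort, an order that was likewise not counted over all genes. The difference of Ccl5 was 1.22 with a myeloid ceiling of 60 (adjusted p = 0.0265) and 0.28 in barcodes of 1500 to 4000 UMIs (adjusted p = 1.00). Gzmb differed by 0.36 ± 0.12 (adjusted p = 0.772), and by 0.95 in barcodes of 1500 to 4000 UMIs (adjusted p = 0.0154). H2-Q7, of the Qa family of MHC class I, had 311 and 467 CPM in Lag3KO_CD4, against 640 and 792 CPM in WT_CD4, and 527 CPM in Lag3KO_CD45, against 656 and 669 CPM in WT_CD45 (-0.67 ± 0.16, adjusted p = 0.412). In barcodes of 1500 to 4000 UMIs its difference was -0.72 (adjusted p = 0.0344).

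**Figure D5:**
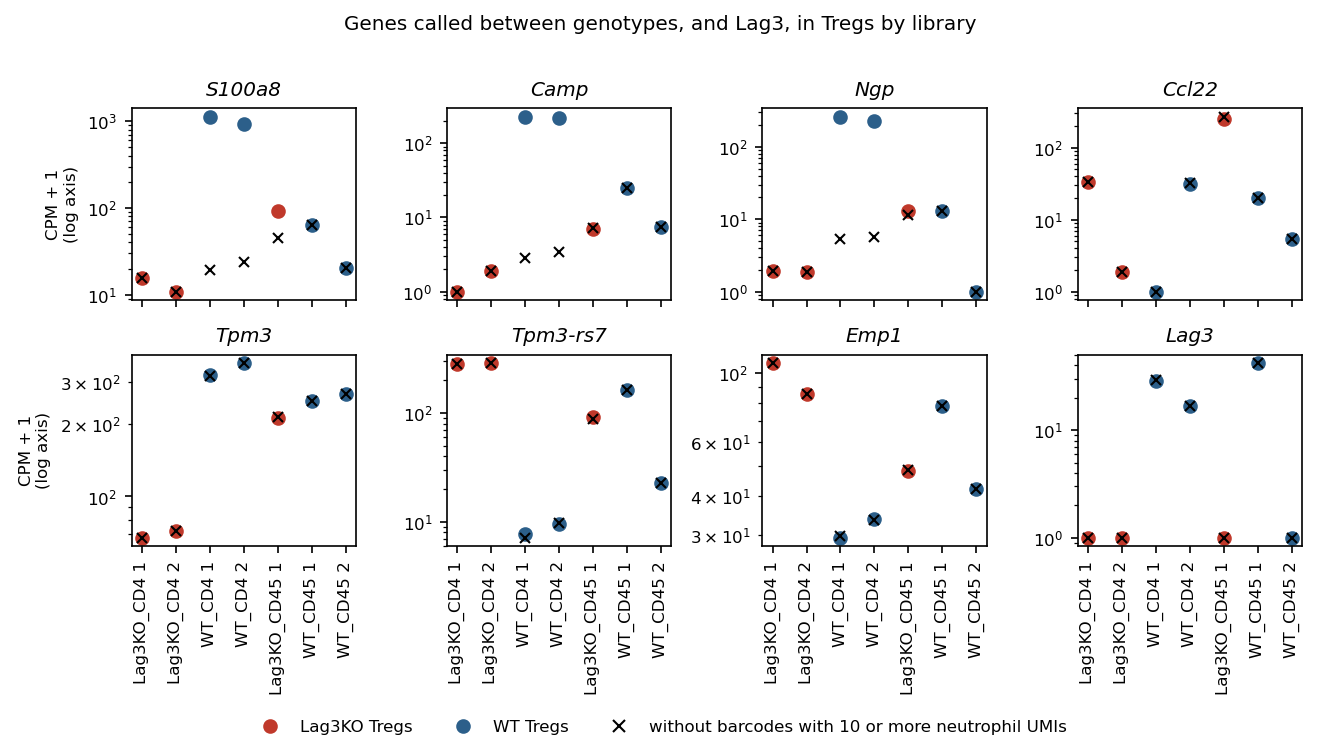
Levels in Tregs by library of 7 genes called in a genotype comparison and of Lag3, in CPM plus 1 on log axes; red points are Lag3KO and blue points WT, and crosses give the level without barcodes that held 10 or more UMIs of 4 neutrophil markers. S100a8 in WT_CD4 is at 1112 and 922 with these barcodes and at 18.4 and 22.97 without them, whereas Tpm3 and Tpm3-rs7 hardly move.

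Whether the genotype difference in Tregs was unlike that in other Cd3 cells was tested directly, as the difference of the 2 genotype differences over both sorts. Of 7505 genes 4 were called (0.0533%): S100a9 (-4.84 ± 0.52), S100a8 (-4.38 ± 0.62), Ccl22 (4.35 ± 0.76) and Tmem176b (0.84 ± 0.15). Ccl22, a chemokine of dendritic cells, came in Tregs from 1 barcode each in Lag3KO_CD4 1 (35 UMIs) and WT_CD4 2 (39 UMIs) and from 9 barcodes in Lag3KO_CD45 1 (127 UMIs, 50 of them in 1 barcode). In other Cd3 cells Ccl22 had 51.7 CPM in Lag3KO_CD45, against 111 and 70.3 CPM in WT_CD45. Tmem176b had 157 and 55.5 CPM in Tregs of Lag3KO_CD4, against 96.7 and 69.5 CPM in WT_CD4, and 163 CPM in Lag3KO_CD45, against 84.1 and 95.6 CPM in WT_CD45. Other Cd3 cells had 279 and 79.3 CPM of Tmem176b in Lag3KO_CD4, against 237 and 199 CPM in WT_CD4. They had 287 CPM in Lag3KO_CD45, against 331 and 381 CPM in WT_CD45. In both classes the ranges of the genotypes overlap in the CD4 libraries. For Ccl22 and Tmem176b the Lag3KO_CD45 value lay above those of WT_CD45 in Tregs and below them in other Cd3 cells, so both classes enter the difference. The genotype difference itself was unlike between the sorts for 2 of 8962 genes (0.0223%), Tpm3 and S100a8. Without barcodes with 10 or more neutrophil-marker UMIs, 0 genes were called in the comparison with other Cd3 cells, with 355 at an unadjusted p under 0.05. DESeq2 on all barcodes called 0, with 51. Without these barcodes the difference of S100a8 was 0.56 and that of S100a9 -0.10, whereas Ccl22 had 4.65 and Tmem176b 0.83 (adjusted p = 0.0919 for both). Their levels hardly moved: Ccl22 had 263 CPM in Tregs of Lag3KO_CD45 without such barcodes, against 250 CPM with them, and Tmem176b 97.3 CPM against 96.7 CPM in WT_CD4 1. That setting was not made to remove dendritic cell RNA. In Lag3KO_CD45, 8 of 76 Tregs held 3 or more UMIs of Fscn1 and Ccl22, against 2 of 63 and 0 of 87 in WT_CD45. In other Cd3 cells 11 of 222 did, against 13 of 214 and 7 of 299. Without barcodes holding RNA of any other cell type 3 of the 4 genes were tested and 0 genes were called. Without the library labelled WT_CD45 2 edgeR called 3 genes in the comparison with other Cd3 cells, S100a9, S100a8 and Napsa, a protease gene, and 7 between the sorts.

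RNA of other cell types was present beside these results. The summed level of 15 myeloid markers in Tregs was 6592 and 3860 CPM in Lag3KO_CD4, against 2581 and 2223 CPM in WT_CD4, and 22352 CPM in Lag3KO_CD45, against 18044 and 11529 CPM in WT_CD45. All 15 markers had UMIs in Tregs of every library, and the Lag3KO values were the higher in each sort. Cd8b1 is the CD8 marker that the rule did not use, and it held 11 to 28 UMIs in Tregs of a library. The part of myeloid RNA in the genotype differences was not tested beyond the settings named above.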

How the data were processed

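The deposited matrices hold counts of UMIs for each gene in each cell barcode; the 7 libraries were made with the 10x Genomics 3′ v2 chemistry, per the labels' protocols. The authors used Cell Ranger (3.0.2 in the headers of the CD4 matrices, not given for the CD45 matrices), Seurat and the GRCm38/mm10 build, per the submitters' processing notes and file headers. No doublet removal is recorded in the sources used here, and none was added: barcodes with RNA of other cell types were handled as alternative settings. The 27998 genes present in all files were used; 0 columns belonged to other samples. Members and lists were chosen with earlier results of these data known, and the 2 settings without barcodes holding RNA of other cell types were chosen after seeing the data.

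Barcodes were classed by the rule on raw counts, and counts were summed per library and class (at least 20 cells). The main tests were two-sided edgeR 4.0.16 quasi-likelihood tests (TMM, filterByExpr, Benjamini-Hochberg over all genes tested, threshold 0.05; R 4.3.3, limma 3.58.1), checked on simulated data. DESeq2 1.42.0 was the other tool. Genotype tests had the sort as a term; the test of Tregs against other Cd3 cells had the library as a block. Shares were compared by exact permutation of genotype within sort (Python 3.11.15, scipy 1.17.1). Where nothing says that libraries came from separate mice, p-values measure only the spread between libraries. Named genes were the 12 largest positive and 12 largest negative differences past the threshold with 1 sign in all 7 libraries and at least 30 CPM in the higher class, without ribosomal, mitochondrial, Gm, Rik, immunoglobulin or T cell receptor names, Lag3 and up to 10 calls each way in genotype tests, and called members of the lists; other uncalled genes given values (Tgfb1, Pdcd1, Il2, Il10, and Ccl5, Gzmb and H2-Q7 between genotypes) were chosen after their values were seen. Genes of the rule are given as values with no test, although a test between genotypes had been planned. The values of some list members are not reported here.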

Additional observations from a re-analysis of the deposited data

Results flagged for a closer look

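The genotype difference (Lag3KO minus WT, log2) in Tregs was unlike in the sorts for 2 of 8962 genes (0.0223%, edgeR): it was lower in the CD4 than in the CD45 libraries by a difference of -1.99 for Tpm3 and of -7.53 for S100a8. Tpm3-rs7 is a near copy of Tpm3, and how reads were split between them was not tested. In Tregs of WT_CD4, 1809 of 1839 and 1151 of 1180 S100a8 UMIs came from the barcodes with 10 or more neutrophil-marker UMIs. Without these barcodes edgeR called 0 genes (373 had an unadjusted p under 0.05). The difference of Tpm3 was then -2.001 (adjusted p = 0.0881), with 317 and 358 CPM in WT_CD4 Tregs, against 320 and 359 CPM with these barcodes, and that of S100a8 was -0.83. With all barcodes DESeq2 gave 4 calls and edgeR without a filter on low counts 51. With at least 2 partner genes edgeR called 0 genes (375 had an unadjusted p under 0.05), and without barcodes over 10000 UMIs 0 (408). The calls also changed when a library was left out in turn, which leaves 1 library in a group.

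The genotype difference in Tregs was unlike that in other Cd3 cells for S100a9 (-4.84), S100a8 (-4.38), Ccl22 (4.35) and Tmem176b (0.84). The values of Ccl22 and Tmem176b were 4.65 and 0.83 without neutrophil-marker barcodes, a setting not made to remove dendritic cell RNA. Other Cd3 cells held such neutrophil-marker barcodes too, 9 of 4463, against 5 of 1513 Tregs.

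T cell receptor segment genes are listed in the files of the CD45 libraries and are not among the genes used for the comparisons. Tregs held 1235 UMIs of these 249 genes in Lag3KO_CD45, against 1190 and 1498 in WT_CD45, and each of the 76, 63 and 87 Tregs held at least 1.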

How the results depend on the processing

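The 24 genes named between Tregs and other Cd3 cells were followed through the other settings in which they were tested. In 376 of 376 pairs of gene and setting they kept their sign and their side of the threshold. These genes were the largest calls with 1 sign in all 7 libraries, which favours that result. The count of 957 genes was 537 with DESeq2 and 644 to 922 without a library in turn. The genotype calls in Tregs depended on the settings. Over both sorts (3 calls) DESeq2 gave 6, no filter on low counts 118, at least 2 partner genes 1, barcodes of 1500 to 4000 UMIs 9, a term for haemoglobin RNA 8, either setting without barcodes holding RNA of other cell types 0, and leaving out a library 1 to 22. In the CD4 libraries (11 calls) no filter gave 83, at least 2 partners 4, 1500 to 4000 UMIs 7, no barcodes over 10000 UMIs 3, a myeloid ceiling of 60 gave 5, either setting without RNA of other cell types 3, and leaving out a library 7 (Lag3KO_CD4 1) to 16 (WT_CD45 2). In the CD45 libraries (0 calls) no filter gave 62, 1500 to 4000 UMIs 1, no barcodes over 10000 UMIs 3 and a fit of these libraries alone 22. Leaving out a WT_CD45 library leaves 1 library against 1 there, so no count is given for it. In other Cd3 cells (0 calls) DESeq2 gave 1, no filter 120, 1500 to 4000 UMIs 1 and leaving out a library 0 to 6 (Lag3KO_CD4 2). The difference between Tregs and other Cd3 cells (4 calls) was called for 0 genes with DESeq2, with 2 partners, without barcodes over 10000 UMIs and in either setting without RNA of other cell types, for 55 without a filter, for 2 with the myeloid ceiling of 60, and for 1 (Lag3KO_CD4 2) to 8 (WT_CD4 2) without a library. Its S100a8 value reversed to 0.56 without neutrophil-marker barcodes and to 0.63 without those of any other cell type; apart from these 2 settings the cause of these changes was not tested.

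The share of Tregs differed by -7.33 to -1.84 points without a library, and in the CD45 libraries by -0.151 points at 1000 UMIs. The Lag3KO_CD45 group has 1 library, which is assumed to vary like the others. Replicate numbers follow the order of deposition and pair no libraries, so no paired analysis was run. Some values split the CD4 libraries across genotype. Haemoglobin RNA was at 0 CPM in Lag3KO_CD4 1 and WT_CD4 1, against 3190 and 13123 CPM in Lag3KO_CD4 2 and WT_CD4 2. At 1000 UMIs, Tregs averaged 6.80 and 6.63 UMIs of type I interferon genes in the former, against 11.8 and 10.0 in the latter. Whether libraries were prepared together was not tested.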
